A study of Mus musculus with 12 samples.

Results

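The genes described here belong to the intermediate filament system of striated muscle and its relatives, 9 in number of the 23923 genes in the files, chosen by symbol. They are desmin (Des), vimentin (Vim) and nestin (Nes), which form or join filaments, synemin (Synm) and syncoilin (Sync), which bind desmin, plectin (Plec), which links filaments to other structures, keratins 8 and 18 (Krt8, Krt18), and dermokine (Dmkn), a secreted protein of the skin that is not a filament protein. Every member was present in the files, and 6 of the 9 passed the filter on low values (a minimum of 0.1 FPKM in 6 or more of the 12 mice). Krt8, Krt18 and Dmkn did not pass it.

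The libraries came from the tibialis anterior, a fast-twitch muscle of the lower leg, of 12 mice aged 6 weeks on a C57BL6/J;129S1/SvImJ background. The 6 controls were Myf6 cre/+; Smyd1 flox/+ and the 6 Smyd1 CKOs were Myf6 cre/+; Smyd1 flox/-, with 1 library per mouse. SMYD1 is a methyltransferase of striated muscle. By the account of the study, both groups also carried a Rosa26 YFP reporter. Cre came from the 3′ end of the Myf6 gene, with recombination beginning shortly before birth and limited to myofibers. By these genotypes, recombined myofibers kept 1 intact copy of Smyd1 in controls and none in CKOs. The other cells of the CKO muscle carried 1 null allele, and those of the control muscle carried none. The labels give no sex or litter, and the study states that only males were used after its first histology and describes controls as littermates.

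Desmin is the main intermediate filament protein of mature muscle. It forms a lattice that ties neighboring myofibrils together at the Z-discs and joins them to the costameres, the nuclei and the mitochondria. Synemin and syncoilin do not form filaments alone but associate with desmin, and plectin anchors the lattice at Z-discs and membranes. Vimentin and nestin are typical of myoblasts and regenerating fibers and also of non-muscle cells of the tissue, with vimentin abundant in fibroblasts and nestin retained at the neuromuscular and myotendinous junctions of adult fibers. Keratins 8 and 18 pair with each other and are best known from simple epithelia. The comparison of controls and CKOs asked how transcripts of this network differed in fast muscle whose fibers were made deficient in Smyd1.

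Values are FPKM, fragments per kilobase of transcript scaled to the mapped reads of the library, so that levels of different genes can be set side by side. Groups were compared with limma on log2(FPKM + 0.1), fold changes are on that scale, and P-values were adjusted over the 12695 genes tested. The number of reads is unknown, and the relative depth of the libraries, read from the steps between low values, ran from 0.993 to 1.78. The median log2 fold change of all tested genes was 0.18, with 77.9% of genes higher in CKOs, and became 0.01 after median-ratio scaling, which divides each library by its typical ratio to the others. The change of each tested member is therefore given on both scales. Control 1 stood apart, with the summed FPKM of fibroblast, macrophage, tendon and adipocyte markers above every other control. Smyd1 itself ranged from 32.9 to 47.1 FPKM (median 34.9) in controls and from 27.8 to 39.9 FPKM (median 33.5) in CKOs. Its groups overlapped, with a log2 fold change of -0.13 ± 0.12 (SE, adjusted P = 0.545) as deposited and -0.32 ± 0.083 (adjusted P = 0.0797, exact permutation P = 0.00433) after scaling, where 5 CKOs lay below every control. A value over the whole gene does not resolve the floxed exon, so Smyd1 did not check the genotype labels here.

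Des was by far the most abundant member, with a mean of 225 ± 18.4 FPKM (SD, n = 6) in controls, the 45th highest mean of all genes in the files. Synm followed at 49.6 ± 5.52, Plec at 36.1 ± 8.07 and Vim at 27.5 ± 11.2 FPKM. Sync, at 6.91 ± 0.847, and Nes, at 4.96 ± 0.668 FPKM, were lower again. In all 12 mice Des exceeded Synm, Synm exceeded Plec, and Vim exceeded Sync. The neighbors Plec and Vim were not separated in this way, with Plec higher in 5 of 6 controls and 4 of 6 CKOs, and Sync exceeded Nes in 6 controls and 5 CKOs. Of the summed FPKM of Des, Synm, Sync, Vim and Nes, Des made up 69.6% to 73.4% in controls and 70.5% to 81.5% in CKOs.

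**Figure D1:**
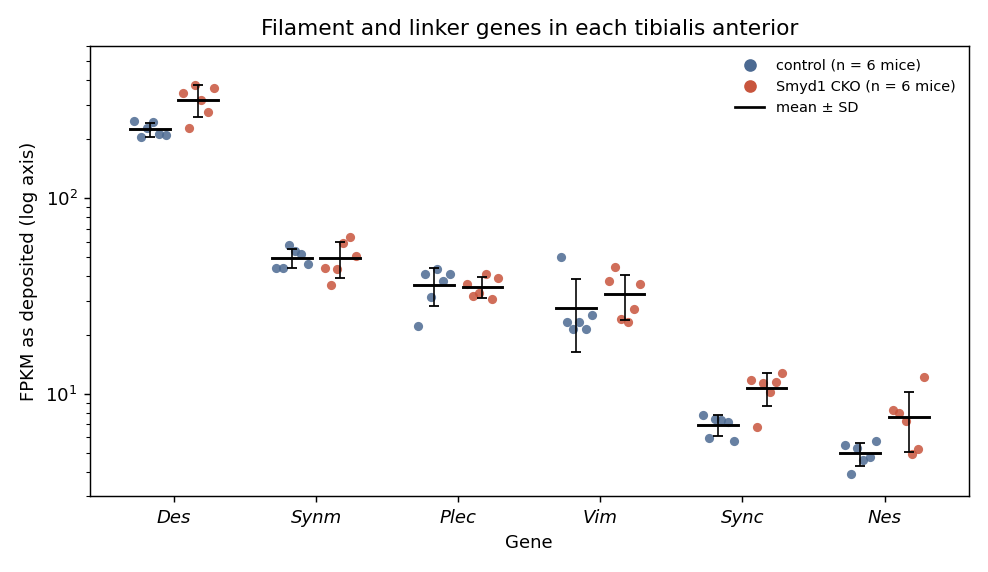
FPKM as deposited on a log axis for the 6 members that passed the low-value filter, with 1 point per mouse and the mean ± SD of 6 controls and 6 CKOs. Des lies above the other members in every mouse, and 5 of 6 CKO points for Des and for Sync lie above the highest control.

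Des, the subunit of the lattice, ranged from 205 to 247 FPKM in controls (median 221) and from 227 to 381 FPKM in CKOs (median 332). Of the CKOs, 5 lay above every control, and CKO 2, the lowest, lay inside the control range. The fold change was 1.40 (95% interval 1.16 to 1.70), a log2 change of 0.49 ± 0.13 (SE), and Des did not pass the adjusted threshold. Its unadjusted P was 0.00188 and its adjusted P 0.0634 in limma, and the exact permutation test over every assignment of mice to groups gave P = 0.00866. After median-ratio scaling the log2 change was 0.30 ± 0.12 (adjusted P = 0.241, exact permutation P = 0.0303), with 4 CKOs above every control and 1 below them. Without CKO 2 the adjusted P as deposited was 0.0153, without control 1 it was 0.0281, and without any other single mouse it stayed above 0.05, up to 0.157.

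Sync, which encodes a desmin partner at the Z-disc, the sarcolemma and the neuromuscular junction, was the 1 member that passed the adjusted threshold. It ranged from 5.74 to 7.82 FPKM in controls (median 7.25) and from 6.81 to 12.8 FPKM in CKOs (median 11.4). As with Des, 5 CKOs exceeded every control and CKO 2 did not. Sync rose 1.53-fold (95% interval 1.24 to 1.88), with a log2 change of 0.61 ± 0.14 (SE), an adjusted P of 0.0393 in limma and P = 0.0108 in the exact permutation test. After median-ratio scaling the log2 change was 0.42 ± 0.12 with an adjusted P of 0.105, and again 5 CKOs stood above every control. Leaving out any single mouse other than control 1 or CKO 2 moved the adjusted P as deposited above 0.05, up to 0.105.

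Synm, a large desmin-binding protein, ranged from 44.2 to 57.4 FPKM in controls (median 49.0) and from 35.9 to 63.0 FPKM in CKOs (median 47.6). The CKOs lay on both sides of the controls, with 2 above and 2 below all of them. Its log2 change was -0.02 ± 0.13 (SE), with a 95% interval of -0.31 to 0.26 and an adjusted P of 0.945, and after scaling it was -0.21 ± 0.14 (adjusted P = 0.546).

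Nes, a filament protein of muscle progenitors, ranged from 3.92 to 5.72 FPKM in controls (median 5.02) and from 4.91 to 12.1 FPKM in CKOs (median 7.65). CKO 6 was the highest, 4 CKOs exceeded every control, and CKO 4 and CKO 5 lay among the controls. The log2 change of 0.56 ± 0.19 (SE) had an unadjusted P of 0.00913 and an adjusted P of 0.126 (exact permutation P = 0.0281), and after scaling it was 0.37 ± 0.17 (adjusted P = 0.354, exact permutation P = 0.0887). As deposited, the summed FPKM of 6 satellite cell and myoblast markers ran from 2.19 to 2.95 in controls and from 3.05 to 6.65 in CKOs. These ranges did not overlap, and all CKOs likewise exceeded all controls for 2.23% of all single genes. After scaling the sums of these markers overlapped, since CKO 5 (3.05) was divided by 1.08 and control 3 (2.95) by 1.02. The 5 of these markers that were tested included 4 that were higher in CKOs at an unadjusted P below 0.05, as were 18.1% of all genes, and 0 past the adjusted threshold. After scaling this count was 3, against 6.62% of all genes. The part of these cells in the levels of Nes, Des and Sync was not tested.

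The sequences upstream of Des and Nes are shown because both encode filament subunits with higher values in CKOs at the unadjusted threshold. They were taken from RefSeq (GRCm38.p6, plus strand for both), whereas the files were made on mm9, and 8 of the 9 members, all but Plec, had an entry. The Des sequence covers the 250 bases before its start (chr1:75360042-75360291), and the Nes sequence covers 235 bases (chr3:87970843-87971077), leaving out bases that GENCODE places in a Nes exon. Capitals mark the E box CANNTG, the motif bound by myogenic basic helix-loop-helix factors, which reads the same pattern on both strands.
Des: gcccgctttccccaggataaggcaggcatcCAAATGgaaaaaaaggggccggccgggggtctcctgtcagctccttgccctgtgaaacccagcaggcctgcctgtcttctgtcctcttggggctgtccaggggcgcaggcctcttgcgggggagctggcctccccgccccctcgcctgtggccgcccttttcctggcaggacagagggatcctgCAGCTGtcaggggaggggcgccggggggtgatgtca
Nes: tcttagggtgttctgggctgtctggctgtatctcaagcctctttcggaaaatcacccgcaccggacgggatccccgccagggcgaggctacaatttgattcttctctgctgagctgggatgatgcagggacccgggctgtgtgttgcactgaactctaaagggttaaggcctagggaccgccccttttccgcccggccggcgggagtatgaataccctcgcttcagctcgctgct
The Des window held 2 E boxes and the Nes window 0. An E box occurred in 66.2% of the 32851 promoter windows of 250 bases. Both the Des and the Nes windows held 2 GC boxes (GGGCGG on either strand, present in 32.7% of windows) and 0 copies of TATAAA on either strand (12.4% of windows). These matches describe the letters only.

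Vim ranged from 21.5 to 50.1 FPKM in controls (median 23.3) and from 23.4 to 44.3 FPKM in CKOs (median 31.7). The 50.1 FPKM of control 1 exceeded every CKO, while each of the 6 CKOs lay above the control median. Vim had a log2 change of 0.26 ± 0.21 (SE, adjusted P = 0.497, exact permutation P = 0.355), and of 0.07 ± 0.19 (adjusted P = 0.912) after scaling. Without control 1 the change as deposited was 0.45, with an unadjusted P of 0.0115 and an adjusted P of 0.079, and after scaling it was 0.21 (adjusted P = 0.53). The summed FPKM of 6 fibroblast markers was 827 in control 1, against 277 at most in the other controls, and ran from 292 to 490 in CKOs. Of these 6 markers, 2 were higher in CKOs at an unadjusted P below 0.05, as were 18.1% of all genes, and 0 passed the adjusted threshold. After scaling 1 was higher, against 6.62% of all genes. None of the markers was at 0. In bulk muscle, a change in the number of cells of a type and a change in their RNA per cell cannot be told apart, and the part of fibroblasts in the Vim values was not tested.

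**Figure D2:**
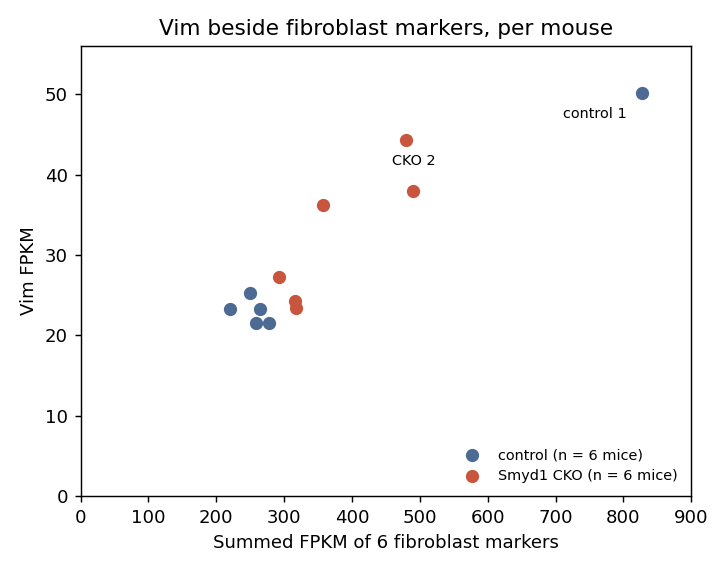
Vim FPKM against the summed FPKM of 6 fibroblast markers (Pdgfra, Dcn, Lum, Col1a1, Col1a2, Col3a1), with 1 point per mouse for 6 controls and 6 CKOs. Control 1 is the highest on both axes, at 827 and 50.1 FPKM, and CKO 2 has the highest Vim of the CKOs, at 44.3 FPKM.

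Plec, the linker, ranged from 22.2 to 43.5 FPKM in controls (median 39.4) and from 30.5 to 41.1 FPKM in CKOs (median 34.6). Control 1 was the lowest of all mice, and every CKO lay within the control range. Its log2 change was -0.01 ± 0.15 (SE), with a 95% interval of -0.33 to 0.32 and an adjusted P of 0.987, and after scaling it was -0.19 ± 0.19 (adjusted P = 0.723). Without control 1 it was -0.14 (adjusted P = 0.416) as deposited and -0.37 (unadjusted P = 0.01, adjusted P = 0.128) after scaling. Of 6 other plakin linkers 3 were tested, and 1 of them passed the adjusted threshold as higher, where 2.02% of all tested genes were higher. This was Macf1, which joins microtubules to actin, at 6.93 ± 1.08 FPKM in controls and 11.1 ± 3.06 FPKM in CKOs (SD, n = 6), a log2 change of 0.65 ± 0.16 (adjusted P = 0.0436) as deposited and 0.46 (adjusted P = 0.0983) after scaling.

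Among the members that were tested, 1 was higher and 0 were lower in CKOs at the adjusted threshold, where 2.02% of all tested genes were higher and 0.268% lower. At an unadjusted P below 0.05, 3 members (Des, Sync and Nes) were higher and 0 lower, against 18.1% and 1.76% of all genes. After median-ratio scaling no member passed the adjusted threshold in limma, where 0.764% of genes were higher and 0.709% lower, and the same 3 members had an unadjusted P below 0.05, against 6.62% of genes higher and 7.44% lower. Without control 1, Des and Sync passed the adjusted threshold as deposited, where 8.56% of all genes were called higher. For 0 of the tested members did all CKOs exceed all controls, which held for 2.23% of all genes.

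**Figure D3:**
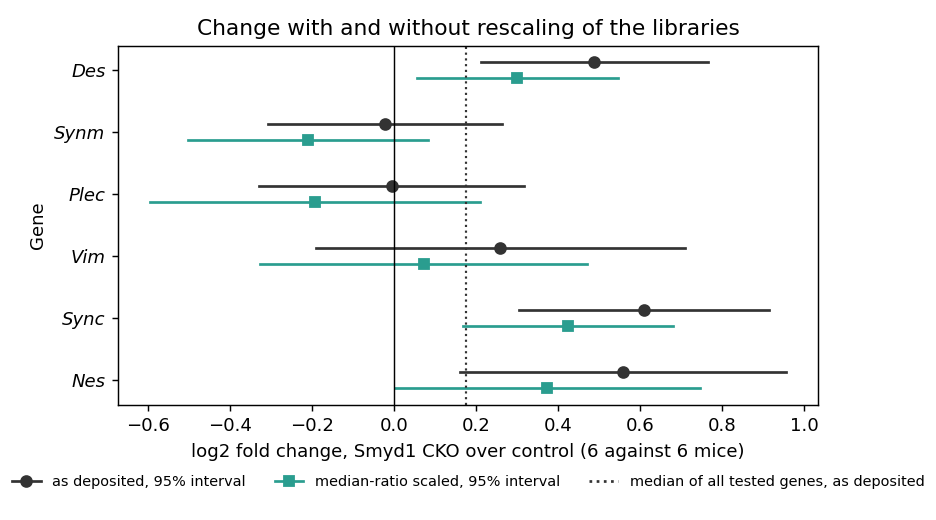
Log2 fold change of CKOs over controls (6 against 6 mice) with 95% intervals for the tested members, as deposited (circles) and after median-ratio scaling (squares). The dotted line marks the median of all genes as deposited, 0.18. Des, Sync, Nes and Vim lie to its right on the deposited scale, and Synm and Plec lie to its left on both scales.

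The ratio of each member to Des within a library is the same whatever factor the library is multiplied by. Per 100 FPKM of Des, Synm stood between 17.9 and 25.0 in controls (median 22.0) and between 11.4 and 22.8 in CKOs (median 14.8). In 4 CKOs the ratio lay below every control. The difference in the log2 ratio was -0.51 (exact permutation P = 0.0195, adjusted over 5 ratios P = 0.0974). For Plec the ratio ran from 8.99 to 20.0 in controls (median 17.8) and from 8.61 to 13.98 in CKOs (median 10.8), with 4 controls above every CKO and control 1, at 8.99, among the CKOs. Its difference was -0.49 (exact permutation P = 0.039, adjusted P = 0.0974). A ratio does not tell a higher Des from a lower Synm or Plec. The log2 changes of Des, Synm and Plec were 0.49, -0.02 and -0.01 as deposited, and 0.30, -0.21 and -0.19 after scaling. Neither ratio passed the adjusted threshold with all mice, and without control 1 the adjusted exact permutation P was 0.0487 for Synm and 0.0325 for Plec. Without CKO 5 it was 0.0325 for Synm. The other omissions gave adjusted P up to 0.155 for Synm and 0.2002 for Plec, and the unadjusted exact permutation P for Plec exceeded 0.05 in 8 of the 12, up to 0.0801.

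Sync kept close to Des, at 2.74 to 3.39 per 100 FPKM of Des in controls and 2.97 to 4.15 in CKOs, a difference in the log2 ratio of 0.13 (exact permutation P = 0.158, adjusted P = 0.263). Nes differed by 0.08 (exact permutation P = 0.686, adjusted P = 0.686), and its CKO ratios, from 1.55 to 3.53, reached both below and above the control range of 1.88 to 2.73. Vim differed by -0.23 (exact permutation P = 0.452, adjusted P = 0.565), with control 1 and CKO 2 the highest mice of their groups at 20.3 and 19.5.

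**Figure D4:**
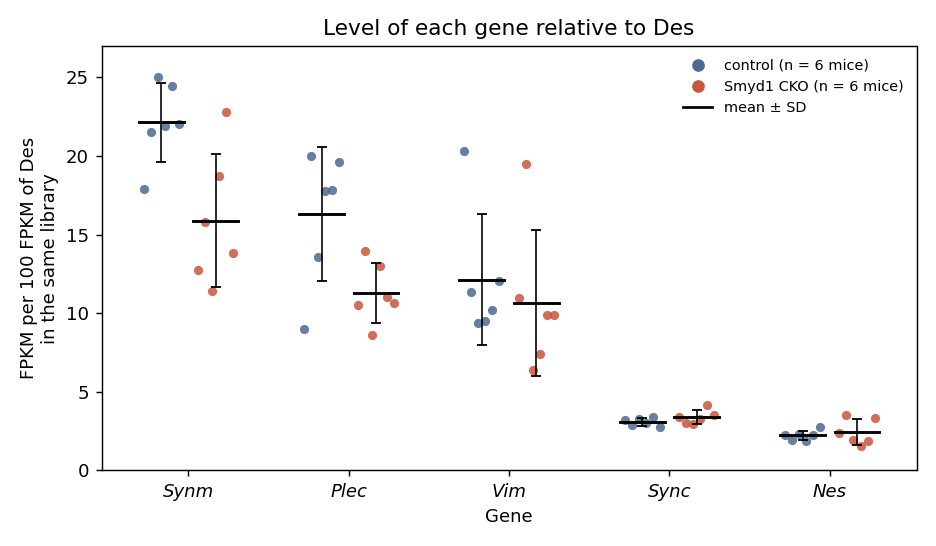
FPKM of 5 members per 100 FPKM of Des in the same library, with 1 point per mouse and the mean ± SD of 6 controls and 6 CKOs. For Synm, 4 CKOs lie below every control and the other CKOs lie within the control range. The groups overlap for all 5 members.

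Krt8, Krt18 and Dmkn were at the bottom of the scale. Krt8 was listed at 0 in all 6 controls and in 5 CKOs, and at 0.0474 FPKM in CKO 2. Krt18 was above 0 in 2 controls, at most at 0.0609 FPKM, and in 5 CKOs, with a median of 0.168 over the 6 CKOs and a highest value of 0.299 FPKM in CKO 4. Dmkn was above 0 only in control 1 (0.14 FPKM) and in CKO 3 (0.108 FPKM). Whether such low genes are seen at all depends on depth. CKO 5, the CKO with Krt18 at 0, had the lowest relative depth (0.993) and the fewest genes above 0 (13813). The other CKOs had 14734 to 15508 genes above 0, and the controls 14276 to 14642. The part of depth in the Krt18 values was not tested. In a limma fit without the low-value filter, Krt18 had a log2 change of 1.01 ± 0.31 (SE), an unadjusted P of 0.00566 and an adjusted P of 0.135, and the adjusted P was 0.665 for Krt8 and 0.959 for Dmkn. Krt8 and Krt18 are neighbors on chromosome 15 of GRCm38.p6, with starts 23874 bases apart. Reads that mapped to several places had been discarded before the values were made, so those of keratins, which have close relatives, are uncertain.

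Of the 52 keratin genes in the files, 25 were listed at 0 in all samples and 4 passed the low-value filter. The 1 keratin gene that reached 1 FPKM in any mouse was Krt222, a name given after its values were seen, with up to 1.42 FPKM in controls and 1.91 FPKM in CKOs. Of 9 keratinocyte markers, 5 stayed under 0.1 FPKM in all mice, and Lor, which encodes the major protein of the cornified envelope, was at 0 in all of them. The summed FPKM of these markers ran from 1.14 to 1.87 in controls and from 2.16 to 4.89 in CKOs. Most of it was Trp63, a transcription factor of basal epithelium, which rose from 1.17 ± 0.311 to 3.01 ± 0.962 FPKM (SD, n = 6; log2 change 1.26, adjusted P = 0.00794, and 1.08, adjusted P = 0.0128, after scaling). Of the 3 markers tested, Trp63 was the 1 past the adjusted threshold in limma, on both scales. Of all tested genes, 2.02% were higher as deposited and 0.764% after scaling. The other 2 tested markers did not pass it. Sfn had means of 0.0609 FPKM in controls and 0.259 FPKM in CKOs (adjusted P = 0.0772), and Krt10 of 0.12 and 0.118 FPKM (adjusted P = 0.919). Sfn met the low-value filter mainly in CKOs, with 5 of them above the highest control, at 0.102 FPKM. Krt14 and Krt1 were not tested and had lower means in CKOs, at 0.0134 and 0.00859 FPKM and at 0.0227 and 0.013 FPKM. Krt5, Dsg3 and Krtdap were each above 0 in 1 CKO only. The part of epithelial cells in the Krt18 values was not tested.

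**Figure D5:**
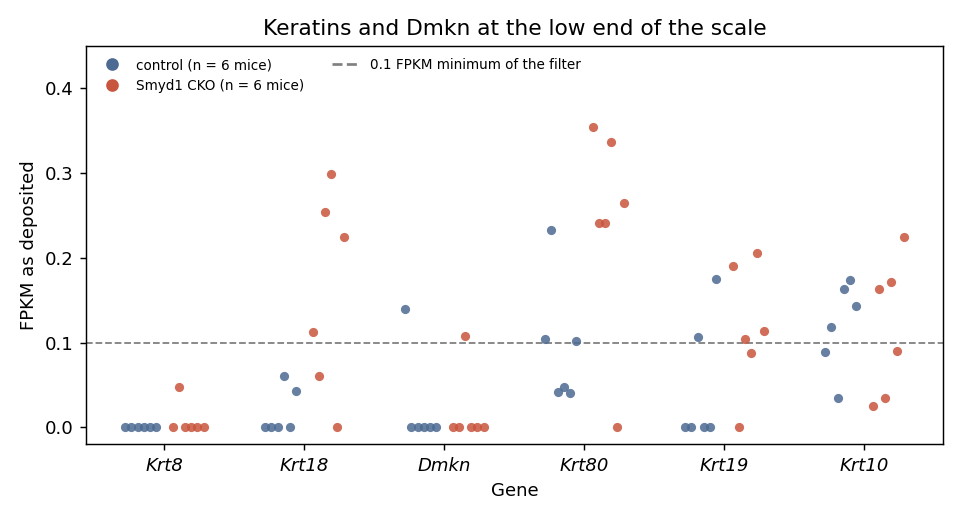
FPKM as deposited of Krt8, Krt18 and Dmkn and of 3 keratins that passed the filter (Krt80, Krt19, Krt10), with 1 point per mouse. The dashed line marks the minimum of 0.1 FPKM. Krt18 is above 0 in 5 of 6 CKOs and 2 of 6 controls.

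Of 26 other intermediate filament genes, 8 were tested and 0 passed the adjusted threshold in limma. As deposited, 2 had an unadjusted P below 0.05, both higher in CKOs, where 18.1% of all genes were higher. The median log2 change of the tested genes was 0.38, against 0.18 for all genes. After scaling, 1 was higher at an unadjusted P below 0.05, against 6.62% of all genes, and the median was 0.21. Bfsp1, Krt80 and Krt19 met the filter's minimum of 0.1 FPKM in more CKOs than controls. Their log2 changes as deposited were 0.58, 0.73 and 0.61. Krt10 (-0.07) met it in more controls than CKOs. The counts and medians of this list therefore depend on which low genes the filter let in. The smallest P-values belonged to Lmna, Bfsp1 and Krt80. Lmna, which encodes the A-type lamins of the nuclear envelope, ranged from 8.49 to 14.6 FPKM in controls and from 10.5 to 18.8 FPKM in CKOs (log2 change 0.38, adjusted P = 0.179, and 0.20, adjusted P = 0.499, after scaling). Bfsp1, known from the lens, was at 0.056 ± 0.0334 FPKM in controls and 0.135 ± 0.053 FPKM in CKOs (SD, n = 6; adjusted P = 0.21, and 0.351 after scaling), and Krt80 at 0.0948 ± 0.0735 and 0.24 ± 0.127 FPKM (adjusted P = 0.272, and 0.475 after scaling).

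The 19 genes listed as costamere and Z-disc anchors of the desmin network were all tested. Of these, 1 passed the adjusted threshold as higher, where 2.02% of all tested genes were higher. Dmd, which encodes dystrophin, the link from the cytoskeleton to the membrane complex of the costamere, ranged from 26.3 to 31.5 FPKM in controls and from 31.3 to 53.4 FPKM in CKOs. Its 5 highest CKOs exceeded every control, and CKO 2 again lay among the controls. The log2 change of Dmd was 0.63 ± 0.13 (SE, adjusted P = 0.0188) as deposited and 0.44 (adjusted P = 0.0573) after scaling. As deposited, 5 anchors had an unadjusted P below 0.05 and all of these were higher in CKOs, where 18.1% of all genes were higher and 1.76% lower. The median log2 change of the list was 0.20, close to the 0.18 of all genes, and after scaling it was 0.01, with 2 anchors higher and 1 lower at the unadjusted threshold, against 6.62% and 7.44% of all genes.

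All 14 genes listed as chaperones, proteases and ligases of desmin were tested. Of these, 1 passed the adjusted threshold as higher, where 2.02% of all tested genes were higher. Capn1, which encodes calpain 1, a calcium-activated protease that cuts desmin, was at 5.64 ± 0.271 FPKM in controls and 8.44 ± 1.37 FPKM in CKOs (SD, n = 6). As deposited the 6 CKOs all exceeded the 6 controls, which held for 2.23% of all genes. This separation was lost after scaling, which divided control 6 (5.93 FPKM) by 0.890 and CKO 6 (7.05 FPKM) by 1.10. The log2 change of Capn1 was 0.56 ± 0.11 (SE, adjusted P = 0.0177) as deposited and 0.37 (adjusted P = 0.104) after scaling. At the unadjusted threshold 4 genes of this list were higher and 0 lower as deposited, against 18.1% and 1.76% of all genes, with a median log2 change of 0.24, and 2 were higher and 2 lower after scaling, against 6.62% and 7.44%, with a median of 0.07.

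The remaining marker lists describe the tissue around these transcripts. The 8 muscle fiber markers summed to between 20693 and 31420 FPKM in controls and between 23552 and 27712 FPKM in CKOs. Past the adjusted threshold 1 marker, Myh1, was higher, where 2.02% of all tested genes were higher. The median log2 change of the list was -0.25. As deposited, 2 of these markers were higher and 1, Acta1, was lower at the unadjusted threshold, against 18.1% and 1.76% of all genes. After scaling 2 were higher (Myh1 and Myh4) and 5 lower (Acta1, Tnnt3, Tnni2, Pvalb and Mb), against 6.62% and 7.44%, with a median of -0.44. The endothelial sum ran from 29.3 to 43.3 in controls and from 29.0 to 48.5 in CKOs, and the smooth muscle and pericyte sum from 52.2 to 89.95 and from 57.2 to 77.5. The macrophage sum (5 of 6 listed genes in the files) ran from 6.05 to 20.6 and from 7.27 to 13.2, the Schwann cell sum from 4.18 to 9.29 and from 6.89 to 12.9, the tendon sum from 17.3 to 57.2 and from 15.8 to 34.6, and the adipocyte sum from 0.437 to 1.06 and from 0.639 to 2.08 FPKM. No marker of these 6 lists passed the adjusted threshold in limma, on either scale. As deposited, the markers with an unadjusted P below 0.05 were all higher in CKOs, where 18.1% of all genes were higher. Of the markers tested, they numbered 0 of 6 for endothelial cells, 1 of 6 for smooth muscle and 0 of 5 for macrophages. For Schwann cells, tendon and adipocytes they numbered 2 of 6, 1 of 5 and 1 of 2. After scaling these counts were 0 except for tendon, with 1 marker higher and 1, Fmod, lower, against 6.62% and 7.44% of all genes. The median log2 change of the tendon list was -0.38 as deposited and -0.56 after scaling.

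The genes whose pattern over mice was most like that of a member were taken from deviations from the group mean over the 12 samples, after scaling, and are given as a description. Des deviated most like Eif3c (Pearson r = 0.92), a subunit of a translation initiation factor, Zbtb21 (0.91) and Eprs (0.90), and Sync like B3galt1 (0.94), Tars (0.92), a transfer RNA synthetase as is Eprs, and Cadm4 (0.91). Vim deviated most like Col1a1 (0.93), a collagen of fibroblasts, Itm2a (0.93) and S100a10 (0.93). Nes did so like Ncam1 (0.90), a cell adhesion molecule on the satellite cell list, Meg3 (0.90) and Zfp560 (0.89). For Synm these genes were Me1 (0.97), AI314180 (0.94) and Sbds (0.94), and for Plec they were Gigyf1 (0.97), Ube3b (0.96) and Prrc2b (0.96). Each was picked for the highest r among the 12695 genes tested, so high values were expected. Vim was highest in control 1 (50.1 FPKM), and Nes and Ncam1 in CKO 6 (12.1 and 3.36 FPKM). The weight of single mice in these r values was not tested.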

How the data were processed

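RNA was measured in the tibialis anterior of 6 controls and 6 Smyd1 CKOs. The authors depleted ribosomal RNA, aligned reads with TopHat2 2.0.10 to mm9, kept uniquely mapped reads, and made the deposited FPKM with Cufflinks 2.1.1 (versions from the submitters' processing notes). Each file held 23950 rows, and 27 rows with a date in place of the symbol were left out. The authors tested counts with DESeq, and counts were not used here.

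Groups were compared with limma 3.58.1 (R 4.3.3) and its trended prior variance on log2(FPKM + 0.1) as deposited, at a Benjamini-Hochberg adjusted P below 0.05. Genes were tested where at least 6 samples had at least 0.1 FPKM. Single members and their ratios to Des were also compared by two-sided exact permutation tests, whose smallest possible P is 0.00216. By the study's methods the 12 libraries were sequenced as a pool, and no litter is named for them. P-values measure the spread between mice. The code was tested on simulated data.

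The members and lists were chosen with earlier results of these data known. All members are named. Of each pathway list, those past the adjusted threshold are named, or else the 3 with the smallest P, and of each marker list the summed FPKM and the number called. Alternatives were median-ratio and quantile scaling, a minimum of 1 FPKM or no minimum, adding 1 in place of 0.1 before taking logs, a correction for transcript length and GC content (splines of 4 terms, 98.6% of genes with values), a replicate block, no trend, sample weights, and leaving out each mouse. Scaling without control 1 was added after the data were seen. Krt222, Fmod, the keratinocyte markers and the muscle fiber markers were named after their values were seen.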

Additional observations from a re-analysis of the deposited data

Results flagged for a closer look

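The 47 groups of 6 values were the 9 members, the ratios to Des and the marker sums, leaving out Krt8 in controls, which is 0 throughout. In 9 of them the highest or lowest mouse exceeded Dixon's limit of 0.625. The limit is on the gap to the nearest mouse over the range of the group. Chance gives about 1 such group in 20 for independent groups of normal values. These groups share mice and genes, and in the flagged groups of Krt8 and Dmkn all other values were 0. The count was therefore not compared with chance. Of the 9 flagged values, 7 were of control 1. Its Vim was 50.1 FPKM against 25.2 FPKM in the next control, and its log2 ratio of Vim to Des was -2.30 against -3.05. The summed FPKM of fibroblast markers was 827 against 277, of macrophage markers 20.6 against 8.73, of tendon and myotendinous junction markers 57.2 against 29.9, and of adipocyte markers 1.06 against 0.643. Dmkn was at 0.14 FPKM in control 1 and at 0.108 FPKM in CKO 3, and Krt8 at 0.0474 FPKM in CKO 2, each the 1 mouse above 0 in its group.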

How the results depend on the processing

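Sync was called as higher with a pseudocount of 1, a filter at 1 FPKM, sample weights and the replicate block, and lost the call with no filter (log2 change 0.61), median-ratio scaling (0.42), quantile normalization (0.47), the length and GC correction (0.43), that correction with the replicate block (0.43), no trend (0.61) and median-ratio scaling without control 1 (0.42). Its adjusted P ran from 0.00668 to 0.135 over these alternatives. Des passed with a filter at 1 FPKM (0.49) and with sample weights (0.56), and Nes with sample weights (0.62). Leaving out each mouse gave log2 changes of 0.43 to 0.58 for Des, 0.55 to 0.73 for Sync, 0.41 to 0.67 for Nes, 0.16 to 0.45 for Vim, -0.0971 to 0.065 for Synm and -0.139 to 0.0548 for Plec, the last 2 changing sign without passing the threshold.

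The genes called higher, 257 with all mice as deposited, numbered 170 with no filter, 97 with median-ratio scaling, 101 with quantile normalization, 99 with the length and GC correction, 98 with this correction and the block, 1400 with sample weights, and 88 to 1075 with 1 mouse left out (1075 without control 1). Those called lower, 34 as deposited, numbered 90, 68, 91, 85 and 115 under median-ratio, quantile, corrected, corrected with block and weighted settings, 182 with median-ratio scaling without control 1, and 18 to 69 with 1 mouse left out. The causes were not tested.

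For the log2 ratios to Des, leaving out each mouse gave -0.62 to -0.42 for Synm, which passed without control 1 or CKO 5, -0.66 to -0.42 for Plec, which passed without control 1, 0.07 to 0.16 for Sync, -0.42 to -0.07 for Vim and -0.0431 to 0.195 for Nes.

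The replicate numbers were not taken to pair the mice, since the correlation of deviations between mice of the same number ran from -0.086 to 0.164 and for 2 of 6 numbers the control correlated best with the CKO of the same number. With the replicate block 272 genes were higher and 40 lower, Sync had an adjusted P of 0.0328, and the other members and all ratios kept their side of the threshold.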
